A study of Mus musculus with 6 samples.

Results

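The genes described here are 8 cathepsins and 2 proteins of the lysosomal membrane, measured by RNA sequencing (RNA-seq) in cortical tissue after microglia depletion. They are the cysteine proteases *Ctss*, *Ctsb*, *Ctsc*, *Ctsh*, *Ctsl* and *Ctsz*, the aspartic protease *Ctsd*, the serine carboxypeptidase *Ctsa*, and *Lamp1* and *Lamp2*. They were listed by symbol, but with earlier results of these data known. All 10 were among the 23366 genes of the table and passed the filter on low values. Libraries came from 3 littermate control mice (A1 to A3) and 3 depleted mice taken at d10 after depletion (A4 to A6), all on a C57BL/6 background, with 1 library per mouse. Depleted mice were CX3CR1-CreERT2+/-iDTR+/-. In these mice tamoxifen (TAM) activates a Cre made under the CX3CR1 promoter, Cre switches on the receptor for diphtheria toxin (DT), and DT then kills the cells that carry it. Control mice were CX3CR1-CreERT2+/- without iDTR, so that every mouse carried the CreERT2 allele, and both genotypes received TAM. The mice were adult, but their exact age, and whether control mice were given DT, are not stated in the sources used here. The CX3CR1 promoter is active in microglia and in other long-lived macrophages at the borders of the brain, and microglia return after depletion in this model, so the d10 tissue was not free of them.

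Lysosomes are acid compartments that break down what a cell takes up by endocytosis or phagocytosis, and what it delivers to itself by autophagy. Cathepsins are their main proteases, made as inactive precursors and held in check outside the lysosome by cystatins, while LAMP proteins coat the inner face of the lysosomal membrane. Most cells of the brain use *Ctsd*, *Ctsb*, *Ctsl*, *Lamp1* and *Lamp2*, whereas *Ctss* is known from microglia and other antigen-presenting cells, where it stays active at neutral pH and cuts the invariant chain of MHC class II. Transcription factor EB (TFEB) drives many lysosomal genes through E-boxes, PU.1 drives many myeloid genes, and interferon-activated factors bind the interferon-stimulated response element (ISRE).

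Promoter windows of 3 members are shown, *Ctss* because the results turn on it, and *Ctsd* and *Lamp1* because they were the most abundant members of the cathepsin and LAMP families. The windows run from 250 bases before to 50 bases after an annotated start and come from RefSeq (GRCm38.p6), in which 8 of the 10 members had 9 windows. *Ctsb* and *Ctsh* had no entry. Capitals mark, on both strands, matches to the E-box CACGTG, to its extended form GTCACGTG, which overlaps it, to the PU.1 core GAGGAA and to the ISRE core, which is GAAA, any 2 bases and GAAA again. The *Ctss* window lies at chr3:95526536-95526835 (plus strand), the *Ctsd* window at chr7:142387778-142388077 (minus strand) and the *Lamp1* window at chr8:13158911-13159210 (plus strand), and each is written 5′ to 3′.
Ctss: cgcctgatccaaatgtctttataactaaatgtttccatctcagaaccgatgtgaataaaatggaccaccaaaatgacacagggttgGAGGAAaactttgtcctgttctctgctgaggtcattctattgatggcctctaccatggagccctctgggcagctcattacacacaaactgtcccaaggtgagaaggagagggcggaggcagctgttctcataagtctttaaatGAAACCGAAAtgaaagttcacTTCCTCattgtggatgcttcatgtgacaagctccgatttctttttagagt
Ctsd: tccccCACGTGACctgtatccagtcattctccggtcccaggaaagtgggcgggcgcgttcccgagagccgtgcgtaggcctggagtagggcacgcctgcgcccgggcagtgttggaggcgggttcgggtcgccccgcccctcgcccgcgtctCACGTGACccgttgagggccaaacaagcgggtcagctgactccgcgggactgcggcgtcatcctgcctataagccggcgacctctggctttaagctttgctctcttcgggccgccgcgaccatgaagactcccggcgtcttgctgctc
Lamp1: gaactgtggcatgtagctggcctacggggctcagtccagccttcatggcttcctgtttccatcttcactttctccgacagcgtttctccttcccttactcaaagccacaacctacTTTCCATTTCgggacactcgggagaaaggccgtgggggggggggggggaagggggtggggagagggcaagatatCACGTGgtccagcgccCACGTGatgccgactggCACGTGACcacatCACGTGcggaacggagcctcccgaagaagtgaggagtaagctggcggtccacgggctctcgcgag

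The *Ctss* window held 1 ISRE match, GAAACCGAAA, whose first base lies 21 bases before the start, and 2 matches to the PU.1 core, but no E-box. The *Ctsd* window held 2 E-boxes, both extended (CACGTGAC on the strand shown). The *Lamp1* window held 4 E-boxes, 1 of them extended, and an ISRE match on the opposite strand. Among the other members, 1 of the 2 *Ctsa* windows held 2 extended E-boxes, the *Ctsl* window 1 E-box, the *Ctsc* window 2 PU.1 cores and the *Lamp2* window 1, while the *Ctsz* window held none of these motifs. Over all 32851 windows, 7.15% held the E-box, 2.25% the extended E-box, 28.3% the PU.1 core and 3.44% the ISRE core. A further motif, the interferon-linked GAS site (TTCNNNGAA, with N for any base), was searched too but is not marked above. Among the members only the *Ctsc* window held a match to it (TTCCTTGAA), against 8.30% of all windows. These are matches of letters and do not show that a factor was bound.

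Values are FPKM (fragments per kilobase of transcript, relative to library depth), scaled between libraries with TMM (trimmed mean of M-values), so levels of different genes are compared per length. The spacing of low values gave an estimated 14.5 to 20.5 M fragments behind the control libraries and 7.08 (A5), 11.2 (A6) and 13.7 M (A4) behind the depleted libraries. Neuron markers were present in every library, with *Snap25*, a synaptic gene, between 1031 and 1254 FPKM. A4 stood apart in interferon response genes, as given with *Ctss*. As for sex-linked genes, *Xist* was at 4.74 FPKM in A3 and at least 30.9 FPKM elsewhere, and 4 Y-linked genes summed to 5.56 FPKM in A4 and no more than 0.16 FPKM elsewhere, although the mice were described as matched for sex.

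Whether cathepsin and LAMP transcripts differed between depleted and control cortex was tested with limma on log2(FPKM + 1) over 14385 genes. None of the 10 genes passed an adjusted p-value of 0.1 (0 of 10, against 0.0278% of all genes tested, which was 4 genes). The study called more genes at this threshold with DESeq on raw counts, which were not used here. Of 14 interferon response genes, 0 passed in limma either, so 0 of 10 does not show that the members were unchanged. At an unadjusted p-value under 0.05, 2 of 10 passed, *Ctss* and *Ctsh*, both higher in depleted mice, where the background was 10.5% of all genes in either direction, 4.79% higher and 5.74% lower. Groups did not overlap in 3 of 10 genes, with *Ctss* and *Ctsh* higher and *Ctsa* lower in every depleted mouse than in every control mouse. The background of such genes was 17.6%, made up of 8.21% higher and 9.38% lower. The median log2 fold change of the 10 genes was 0.080, against -0.0085 over all genes tested. A positive value was found in 9 of 10, against 6907 of the 14385 genes tested. Without A4, *Ctsc* (-0.29), *Ctsz* (-0.17), *Ctsa* (-0.10) and *Lamp2* (-0.060) were negative and the other members positive. Taken mouse by mouse against the control mean, A4 had a median of 0.33, A5 of 0.018 and A6 of 0.053 on the log2 scale, and without A4 the median log2 fold change was 0.0073. The plot of values by mouse shows *Ctss* as the member with the widest separation of the groups.

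**Figure D1:**
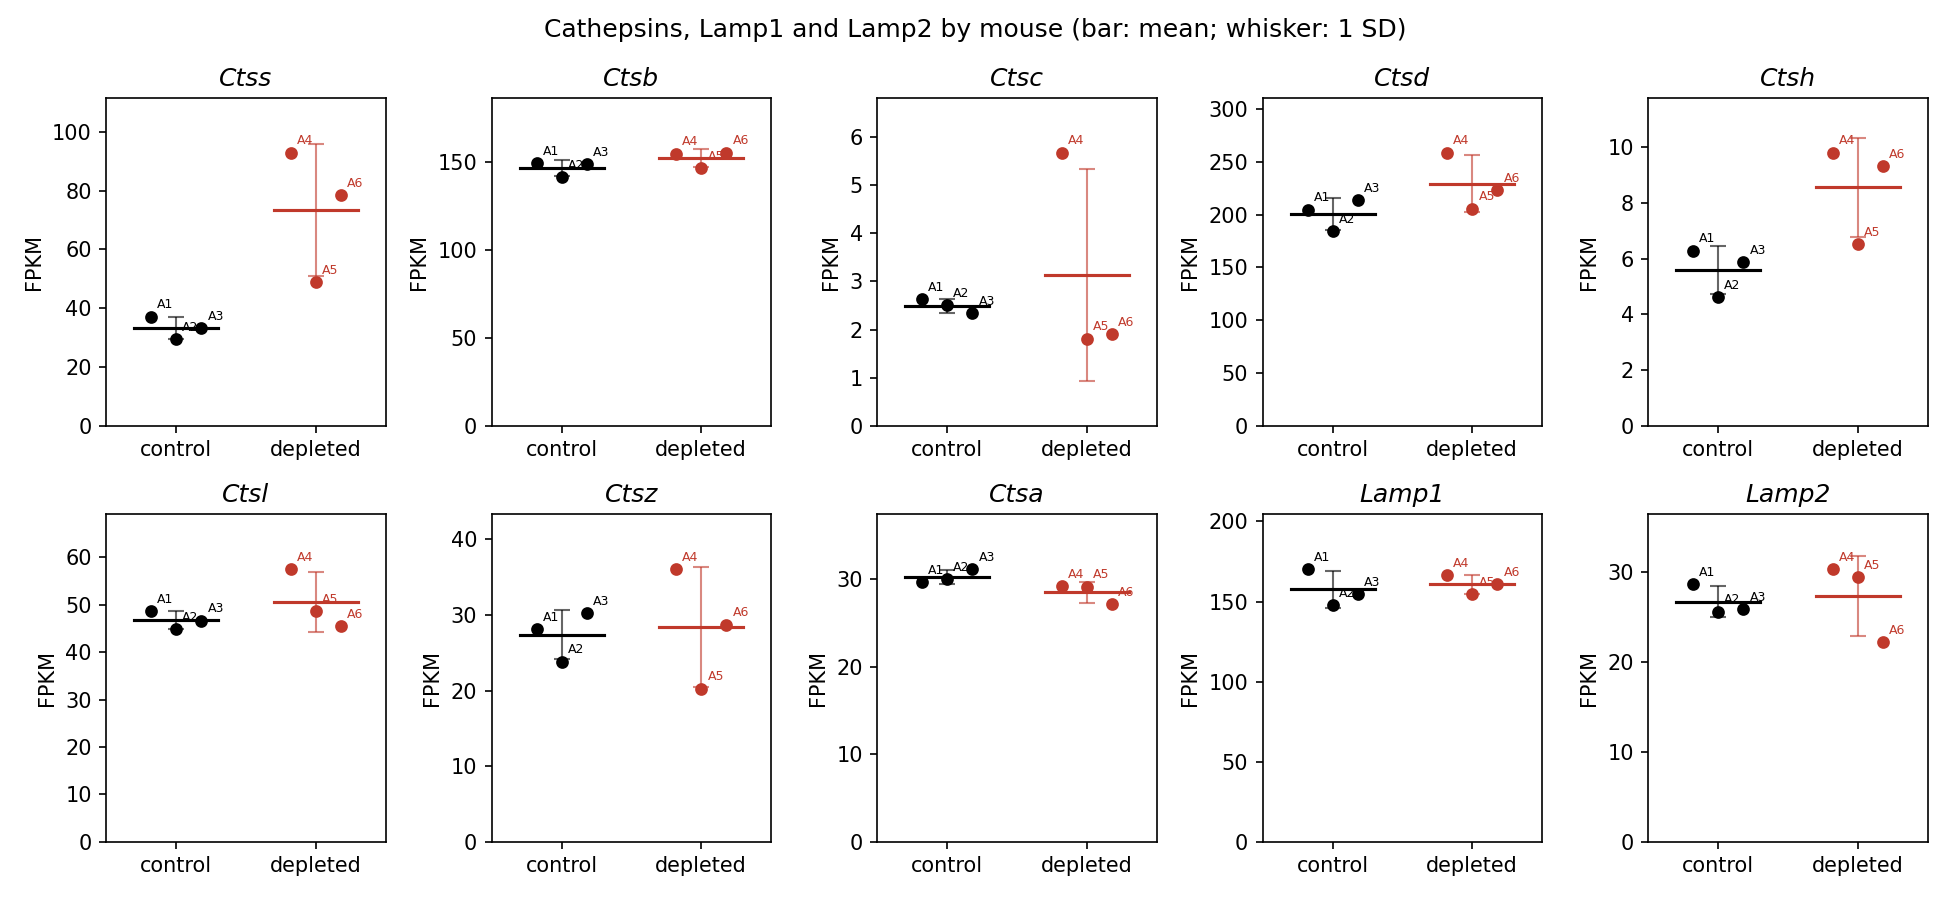
FPKM of the 8 cathepsins, *Lamp1* and *Lamp2* in each control mouse (A1 to A3) and each depleted mouse (A4 to A6), 1 point per mouse, with a bar at the group mean and a whisker of 1 SD. *Ctss* lies between 29.5 and 37.1 FPKM in control mice and between 48.8 and 92.9 FPKM in depleted mice, while 7 of the other 9 members overlap between the groups.

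The member with the largest difference was *Ctss*, the lysosomal cysteine protease of antigen-presenting cells. Its level was 37.1, 29.5 and 33.2 FPKM in A1 to A3, and 92.9, 48.8 and 78.5 FPKM in A4 to A6. Every depleted mouse lay above every control mouse, and A5 was the lowest of the depleted mice. Mean *Ctss* was 33.3 ± 3.77 FPKM for control and 73.4 ± 22.5 FPKM for depleted mice (SD, n = 3 each), a ratio of 2.21. On the log2(FPKM + 1) scale the difference was 1.07 (SE 0.21, 95% interval 0.60 to 1.55), with an unadjusted p of 0.000766 and an adjusted p of 0.293 in limma. The exact two-sided permutation test gave p = 0.1, the smallest that 3 mice against 3 allow. Counted from the largest increase down, with decreases placed last, *Ctss* ranked 57 of 14385 genes by log2 fold change. With A5 left out the log2 fold change was 1.34 and the adjusted p in limma 0.0183, the only one of 16 alternatives in which *Ctss* passed, and over these the adjusted p in limma ran from 0.0183 to 0.892. In bulk tissue more cells of a type and more RNA per cell cannot be told apart, for *Ctss* or for any other gene here.

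*Ctsh*, a cysteine aminopeptidase of the lysosome, had the next largest difference. It was at 6.29, 4.62 and 5.87 FPKM in A1 to A3, and at 9.81, 6.53 and 9.33 FPKM in A4 to A6. The groups did not overlap, but A5 lay close to A1. Mean *Ctsh* was 5.59 ± 0.869 FPKM for control and 8.56 ± 1.77 FPKM for depleted mice (SD, n = 3 each), a ratio of 1.53. The log2 fold change was 0.53 (SE 0.17, 95% interval 0.15 to 0.91), with an adjusted p of 0.381 in limma, and 0.42 to 0.69 with any 1 mouse left out. Without A2 its unadjusted p no longer passed 0.05, and 1 of the 10 genes did, where 6.61% of all genes passed.

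*Ctsc*, which activates the granule serine proteases of immune cells, was the scarcest member. Its level was 2.63, 2.50 and 2.34 FPKM in A1 to A3, and 5.68, 1.81 and 1.90 FPKM in A4 to A6. A4 alone lay above the control mice, and A5 and A6 lay below all of them. The log2 fold change was 0.12 (SE 0.31, 95% interval -0.58 to 0.82, adjusted p = 0.913 in limma), and it turned to -0.29 without A4. About 12.8 fragments per kilobase stood behind the A5 value and 77.8 behind the A4 value, and *Ctsc* rested on fewer fragments per kilobase than any other member in every mouse.

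The remaining cysteine cathepsins, *Ctsl*, *Ctsb* and *Ctsz*, showed small differences between the group means. *Ctsl*, an endopeptidase of general lysosomal turnover, was at 48.7, 44.9 and 46.6 FPKM in A1 to A3 and at 57.6, 48.7 and 45.4 FPKM in A4 to A6. The groups overlapped, and the log2 fold change was 0.11 (SE 0.097, 95% interval -0.12 to 0.33, adjusted p = 0.718 in limma), with 0.010 without A4 and 0.18 without A6. *Ctsb*, which also trims peptides from their carboxyl end, was at 149, 141 and 149 FPKM in control and at 155, 146 and 155 FPKM in depleted mice. The ranges overlapped here too, and the log2 fold change was 0.05 (SE 0.064, 95% interval -0.09 to 0.20, adjusted p = 0.790 in limma). *Ctsz*, a carboxypeptidase, was at 28.2, 23.8 and 30.2 FPKM in control and at 36.1, 20.2 and 28.7 FPKM in depleted mice. The depleted mice spanned the control range on both sides, and the log2 fold change was 0.018 (SE 0.19, 95% interval -0.41 to 0.45, adjusted p = 0.981 in limma).

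*Ctsd*, the aspartic protease and the most abundant cathepsin, was at 205, 184 and 214 FPKM in A1 to A3 and at 259, 206 and 223 FPKM in A4 to A6. A4 and A6 were above every control mouse and A5 was within the control range. The log2 fold change was 0.19 (SE 0.099, 95% interval -0.04 to 0.41, adjusted p = 0.542 in limma), and 0.095 without A4. *Ctsa*, the carboxypeptidase that also shields β-galactosidase and neuraminidase from breakdown, was the member that was lower in depleted mice. It was at 29.7, 30.0 and 31.2 FPKM in control and at 29.2, 29.2 and 27.2 FPKM in depleted mice. The groups did not overlap, but the gap between A1 and A4 was under 0.5 FPKM, and the log2 fold change was -0.085 (SE 0.074, 95% interval -0.25 to 0.084, adjusted p = 0.704 in limma).

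Among the membrane proteins, *Lamp1* was at 170.4, 148 and 155 FPKM in control and at 167, 155 and 161 FPKM in depleted mice. *Lamp2*, which also serves as the receptor of chaperone-mediated autophagy, was at 28.7, 25.6 and 25.8 FPKM in control and at 30.4, 29.4 and 22.2 FPKM in depleted mice. Both genes overlapped between the groups. The log2 fold change of *Lamp1* was 0.030 (95% interval -0.14 to 0.20, adjusted p = 0.910 in limma) and that of *Lamp2* 0.020 (95% interval -0.26 to 0.30, adjusted p = 0.966 in limma). These p-values do not show that the levels were equal. *Lamp2* is on the X chromosome, where the *Xist* level of A3 stood apart, and A3 was within the range of the other control mice.

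**Figure D2:**
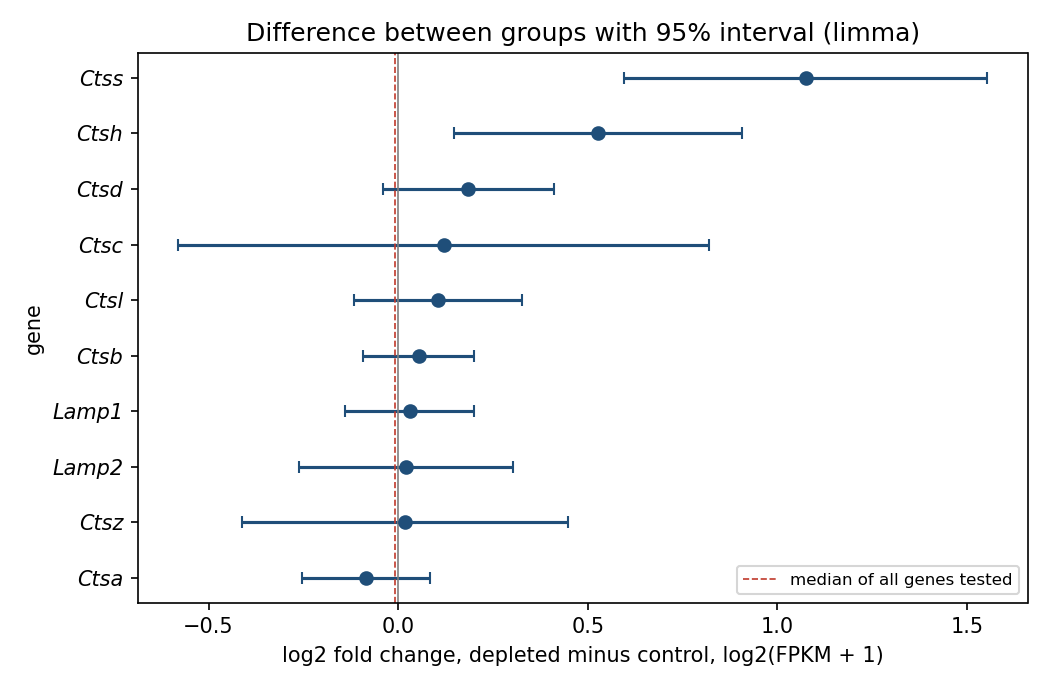
Log2 fold change of depleted over control mice for each member on the log2(FPKM + 1) scale, with 95% intervals from limma and a dashed line at the median of all genes tested (-0.0085). The intervals of *Ctss* (0.60 to 1.55) and *Ctsh* (0.15 to 0.91) lie above 0, and those of the other 8 members include 0.

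The order of the members by level was largely shared by the groups. In control mice *Ctsd* was highest, followed by *Lamp1* and *Ctsb*, whose ranges overlapped, then *Ctsl*, then *Ctss*, *Ctsa*, *Ctsz* and *Lamp2*, in which neighbours overlapped, then *Ctsh* and *Ctsc*. In depleted mice *Ctss* stood above *Ctsl* by mean, with overlapping ranges, and no other member moved past a neighbour. The 6 cysteine cathepsins summed to 262 ± 13.4 FPKM for control and 316 ± 42.2 FPKM for depleted mice (SD, n = 3 each), a ratio of 1.21. Without *Ctss* the sums were 229 ± 9.96 and 243 ± 20.2 FPKM (SD, n = 3 each), a ratio of 1.06. *Ctss* made up 13.6%, 11.97% and 12.4% of the 6 in A1 to A3, and 26.05%, 17.9% and 24.6% in A4 to A6. Its share thus did not overlap between the groups.

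Markers of other cells were set beside *Ctss* and *Ctsh*, the members at an unadjusted p under 0.05. Of 13 pan-myeloid markers, 12 had a positive log2 fold change, 7 had an unadjusted p under 0.05 and 0 passed the adjusted threshold in limma, with a median of 0.47. They summed to 157 to 192 FPKM in control and 210 to 376 FPKM in depleted mice. *Aif1*, which encodes the microglial stain IBA1, was at 6.49, 6.30 and 5.88 FPKM in A1 to A3 and at 14.3, 7.34 and 12.8 FPKM in A4 to A6 (log2 fold change 0.74, adjusted p = 0.378 in limma, and 1.01 with adjusted p = 0.0413 in limma without A5). The depleted mice ordered A4, A6, A5 in *Aif1*, as they did in *Ctss* and *Ctsh*. *Ctsl* and *Lamp2* ran A4, A5, A6, but *Ctsd*, *Cst7* and *Gfap* also ran A4, A6, A5. That order was thus not particular to *Aif1*, *Ctss* and *Ctsh*. Estimated depth also ran A4, A6, A5, at 13.7 M fragments in A4, 11.2 M in A6 and 7.08 M in A5. The 13 homeostatic microglia markers summed to 87.5 to 107 FPKM in control and 85.9 to 104 FPKM in depleted mice, with a median log2 fold change of 0.034, and 9 of 13 were higher and 4 lower. Within them *P2ry12* was at 9.44 ± 0.878 and 7.18 ± 0.730 FPKM (SD, n = 3 each), *Fcrls* at 11.1 ± 2.64 and 5.60 ± 2.09 FPKM (SD, n = 3 each), and *Tmem119* at 8.77 ± 1.79 and 9.99 ± 2.75 FPKM (SD, n = 3 each), in control and depleted mice. *Trem2*, a lipid receptor of microglia, was higher in every depleted mouse, at 11.8 ± 1.08 and 17.3 ± 3.52 FPKM (SD, n = 3 each), and *Siglech* was also higher without overlap, at 4.68 ± 0.573 and 5.68 ± 0.340 FPKM (SD, n = 3 each), while *P2ry12* and *Fcrls* were lower without overlap. The part that these markers had in the cathepsin values was not tested.

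Each of the 2 cathepsins was then divided by such sums within its own library. Most of the pan-myeloid sum came from *C1qb*, *C1qc*, *C1qa* and *Tyrobp*, at 42.1, 36.9, 36.3 and 25.5 FPKM on average in control mice. Ratios to it therefore rest mainly on these genes. *Ctss* over the pan-myeloid sum was 0.193, 0.188 and 0.183 in A1 to A3, and 0.247, 0.233 and 0.299 in A4 to A6. *Ctss* over the homeostatic sum was 0.347, 0.338 and 0.347 in control and 0.892, 0.568 and 0.778 in depleted mice. The groups did not overlap in either ratio, with depleted mice higher, and the differences in mean log2 ratio were 0.46 and 1.09. *Ctss* over *Ctsl* went from 0.761, 0.658 and 0.713 to 1.61, 1.00 and 1.73 (difference in mean log2 ratio 0.99). For *Ctsh* the ratio to the pan-myeloid sum overlapped between the groups, at 0.0315 ± 0.00188 in control and 0.0309 ± 0.00475 in depleted mice (SD, n = 3 each), while the ratio to the homeostatic sum did not overlap, at 0.0577 ± 0.00438 and 0.0876 ± 0.0100 (SD, n = 3 each). These 5 ratios were chosen after their parts had been seen. In exact two-sided permutation tests 4 gave p = 0.1 (0.125 after Benjamini-Hochberg adjustment over the 5) and *Ctsh* over the pan-myeloid sum gave p = 0.8 (adjusted 0.8).

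**Figure D3:**
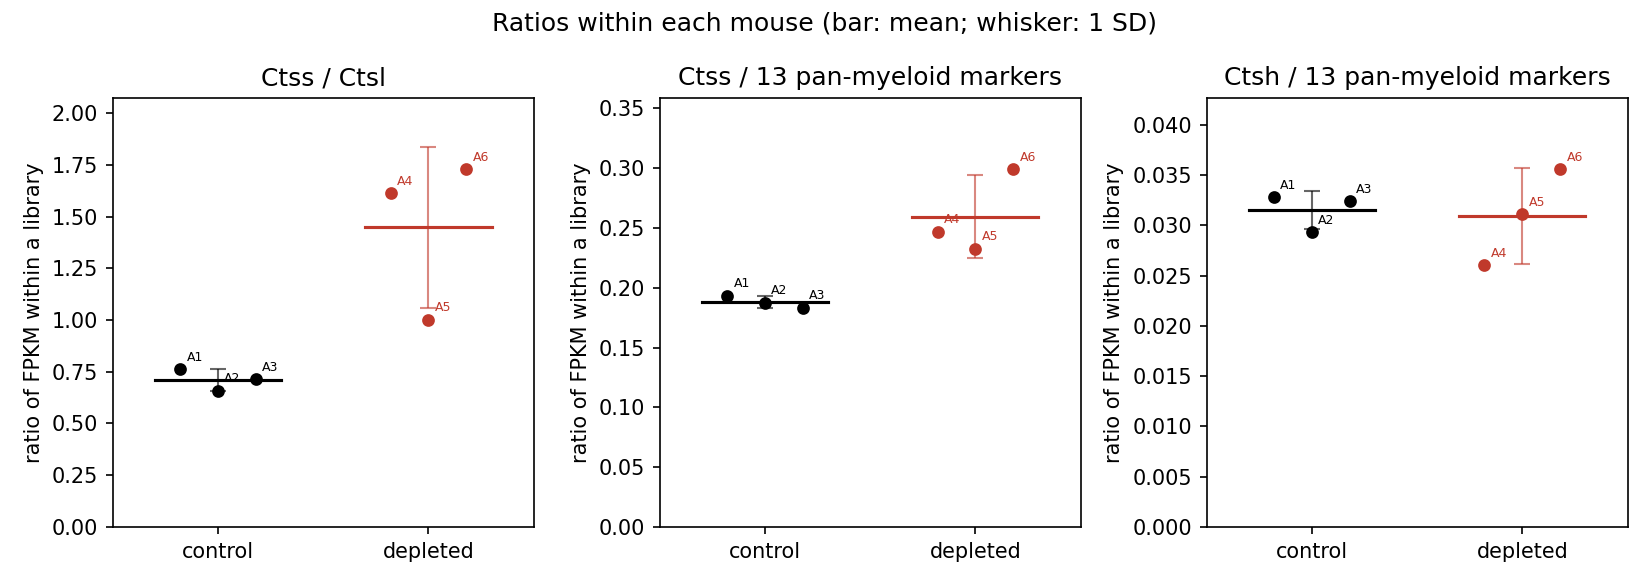
Ratios of FPKM within a library for *Ctss* over *Ctsl*, *Ctss* over the sum of 13 pan-myeloid markers and *Ctsh* over that sum, 1 point per mouse, with a bar at the group mean and a whisker of 1 SD. *Ctss* over the pan-myeloid sum lies between 0.183 and 0.193 in control and between 0.233 and 0.299 in depleted mice, while *Ctsh* over that sum overlaps.

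Interferon response genes were also higher in depleted mice. All 14 had groups that did not overlap and an unadjusted p under 0.05, and 0 passed the adjusted threshold in limma. Their median log2 fold change was 1.83, or 1.03 without A4. Among all genes tested, 8.21% were higher without overlap and 4.79% were higher at an unadjusted p under 0.05. The study had already reported an interferon signature in this cortical tissue. The list was chosen with earlier results of these data known, so its shared direction is not an independent finding. The 14 genes summed to 31.2 to 45.7 FPKM in control and 92.5 to 516 FPKM in depleted mice. Against the control mean, A4 had a median of 3.49, A5 of 0.98 and A6 of 1.11 on the log2 scale, so A4 stood far above the other depleted mice. *Ctss* was 2.79, 1.47 and 2.36 times its control mean in A4 to A6. These are plain ratios, so they are not on the same scale as the log2 medians of the interferon response genes. *Ctss* without A4 had a log2 fold change of 0.88 (adjusted p = 0.181 in limma). The part of the interferon response in the *Ctss* level was not tested. Monocyte and border macrophage markers summed to 11.8 to 15.01 FPKM in control and 12.4 to 15.1 FPKM in depleted mice, which overlap, but *Cd74* held the largest part of these sums (5.89 and 6.47 FPKM on average). At an unadjusted p under 0.05 in limma, *Ly6c2* of monocytes was higher and *Pf4* of border macrophages was lower (log2 fold change -0.85). *Ly6c2* was at 0.18, 0.46 and 0.15 FPKM in A1 to A3 and 1.73, 0.39 and 0.88 FPKM in A4 to A6, so A5 was within the control range. Of the 7 genes tested in this list, 4 were higher and 3 lower, with a median log2 fold change of 0.028. The list thus had no shared direction. *Gfap*, the intermediate filament of astrocytes, was at 79.0 ± 12.7 and 176 ± 108 FPKM (SD, n = 3 each), with its highest value in A4, and its log2 fold change was 1.00, or 0.54 without A4. The other astrocyte markers did not share this direction, since 6 of the 8 were lower, *Aldoc* (-0.19) and *Gja1* (-0.19) without overlap, and the median was -0.14. *Ttr* of the choroid plexus had a log2 fold change of -1.91 (adjusted p = 0.151 in limma). All 8 choroid plexus markers were lower (median -0.43), as were all 8 oligodendrocyte markers (median -0.22), while 7 of 8 endothelial markers were higher. The part that the make-up of the tissue pieces had in the cathepsin values was not tested.

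Lysosomal genes beyond the members were grouped by role. Of 15 other cathepsins, 3 passed the filter and 8 were listed at 0 in every mouse. *Ctsf* was at 33.0 ± 1.24 and 32.1 ± 3.75 FPKM, *Ctso* at 10.7 ± 1.52 and 11.3 ± 1.95 FPKM, and the osteoclast protease *Ctsk* at 2.42 ± 0.965 and 2.59 ± 1.12 FPKM (SD, n = 3 each), in control and depleted mice. None of the 3 had an unadjusted p under 0.05. Of 11 cystatins and other cathepsin inhibitors 7 were tested, and 1 passed that unadjusted level. This was *Cst7*, which encodes cystatin F, an inhibitor of lysosomal cysteine proteases in immune cells, at 0.14, 0.20 and 0.60 FPKM in A1 to A3 and at 3.36, 0.57 and 2.78 FPKM in A4 to A6. A5 lay within the control range, and the log2 fold change was 1.19 (adjusted p = 0.378 in limma), or 1.64 without A5 (adjusted p = 0.0551 in limma). *Cst3*, the abundant secreted cystatin C, was at 1493 FPKM in control and 1377 FPKM in depleted mice on average (log2 fold change -0.11).

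Of 41 other lysosomal hydrolases and their activators, 40 were tested, with 21 higher and 19 lower and a median log2 fold change of 0.017. At an unadjusted p under 0.05, 4 were higher (among them *Lgmn*, *Dnase2a* and *Ifi30*) and 2 lower (*Neu1* and *Tpp1*). *Ifi30*, an interferon-inducible thiol reductase of antigen processing, had the largest difference, at 2.60 ± 0.293 and 5.15 ± 2.26 FPKM (SD, n = 3 each; log2 fold change 0.71, adjusted p = 0.396 in limma). Without A4 the log2 fold change of *Ifi30* was 0.44, next to 0.43 for *Dnase2a*. Of 22 other lysosomal membrane proteins 21 were tested, with 11 higher and 10 lower, and *Cd63* and *Laptm5* were higher and *Lamp5* and *Abca2* lower at the unadjusted level. *Lamp5*, a neuronal relative of *Lamp1* and *Lamp2*, had a log2 fold change of -0.41, or -0.23 without A4. Of 19 subunits of the V-ATPase, the proton pump of the lysosome, 18 were tested, with 13 higher and 5 lower and a median of 0.052, and *Atp6v1g2*, a neuronal subunit, was at 291 ± 10.8 and 335 ± 21.3 FPKM (SD, n = 3 each; adjusted p = 0.409 in limma). Of 13 genes for sorting to the lysosome and of the TFEB family 12 were tested, with 4 higher and 8 lower, and *Gga1*, a sorting adaptor, had a log2 fold change of -0.26 (adjusted p = 0.475 in limma). In each list, 0 genes passed at an adjusted p of 0.1 by limma, and the medians lay between -0.072 and 0.053. Genes named for passing the unadjusted level or for groups that did not overlap, *Snap25*, *Cd74*, *Cst3*, *C1qa*, *C1qb*, *C1qc* and *Tyrobp* were chosen after their values were seen.

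**Figure D4:**
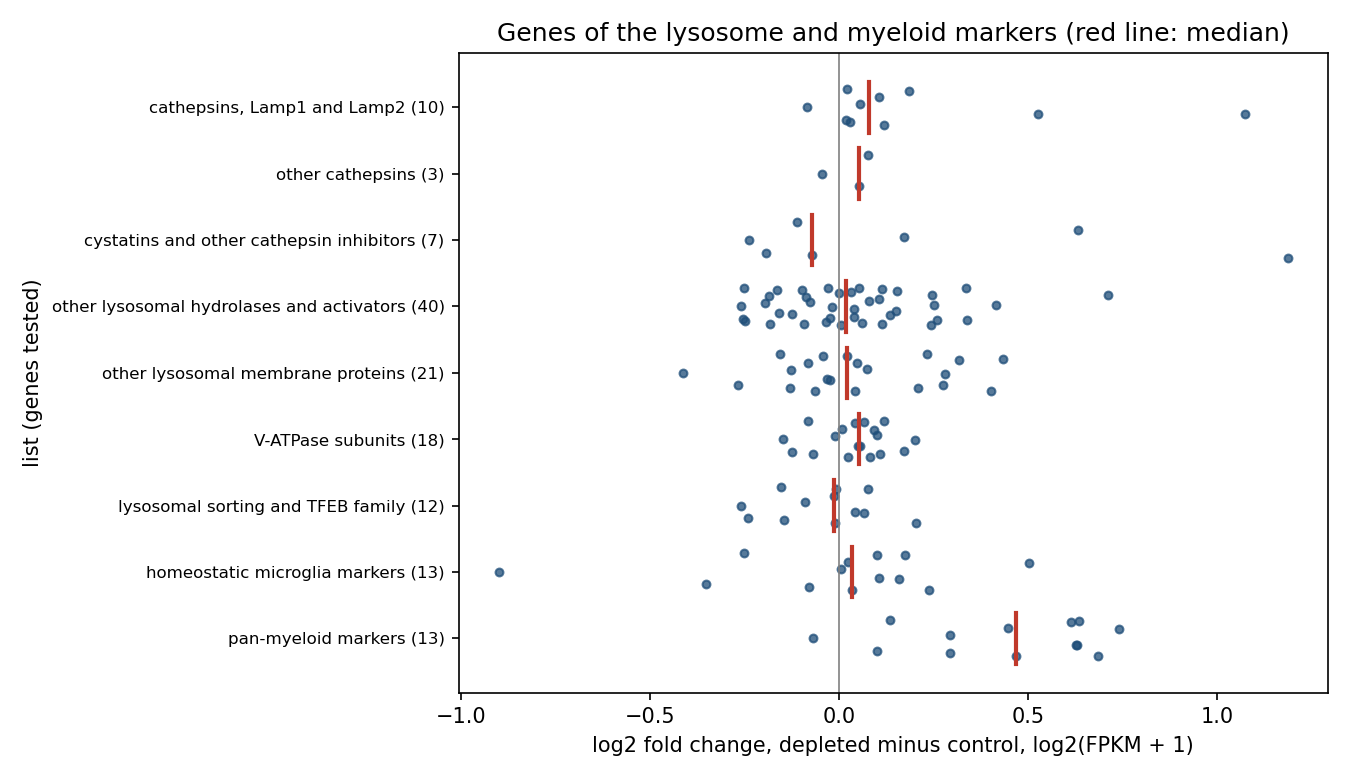
Log2 fold change (depleted minus control, on log2(FPKM + 1)) of every tested gene in the list of the 10 members, 6 other lysosomal lists and the homeostatic microglia and pan-myeloid marker lists, 1 point per gene, with a red line at each median. Medians of the lysosomal lists lie between -0.072 and 0.080, and that of the pan-myeloid markers at 0.47.

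Gene positions and shared sequence bear on how reads could be assigned. In GENCODE M21 (GRCm38), matched by symbol since the files use mm9, *Ctss* runs from 95526786 to 95556403 on chromosome 3 (plus strand) and *Ctsh* from 90054152 to 90076089 on chromosome 9 (plus strand). *Ctsd* runs from 142375911 to 142388038 on chromosome 7 (minus strand) and *Ctsa* from 164832873 to 164841032 on chromosome 2 (plus strand). No 75-base window of the transcripts of *Ctss*, *Ctsc*, *Ctsh* or *Ctsz* was shared with another gene (0%). Windows were shared for 31.3% of *Ctsd*, with *Gm49369*, for 24.6% of *Ctsl*, mainly with *Gm47123*, for 11.8% of *Ctsb*, with *Fdft1* on the opposite strand, and for 9.25% of *Ctsa*, with *Neurl2* and *Pltp* on the opposite strand. For *Lamp1* and *Lamp2* the shares were 4.04% and 0.137%. *Gm49369* lies on the same strand as *Ctsd*, so counting by strand would not separate them, and *Ctsl* overlaps *Gm49230* on its own strand as well as *Gm47123* on the opposite strand. None of these *Gm* genes was listed under its symbol among the 23366 genes, so a split of reads with them cannot be shown. Whether reads from their shared sequence were counted for *Ctsd* and *Ctsl* was not tested. For the overlaps on opposite strands, whether reads were counted by strand is not stated. The levels of *Ctsd*, *Ctsl*, *Ctsb* and *Ctsa* are therefore less certain than that of *Ctss*.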

How the data were processed

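Cortical RNA of 3 control and 3 depleted mice was analysed, with groups taken from the labels. The authors made poly(A) libraries, read 75 bases from both ends of each fragment, used TopHat for alignment and RSEM for quantification of known transcripts, and deposited FPKM values scaled with TMM and rounded to 2 decimals. The submitters' processing notes name mm9 and DESeq. Annotation and tool versions are not given in the sources used here. Raw counts were not used here.

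The 14385 of 23366 genes that averaged 0.5 FPKM or more were compared on log2(FPKM + 1) with limma 3.58.1 in R 4.3.3 (eBayes with trend), with Benjamini-Hochberg adjustment over all of them taking 0.1 as threshold. This scale understates the fold changes of low genes. Single members were also compared by exact two-sided permutation of mean FPKM. Depth was estimated from the spacing of low FPKM values in 1813 genes with annotated lengths of 400 to 1500 bases. It covers counting only. The fit and the depth estimate were tested on simulated data. Python 3.11.15, pandas 2.3.3, scipy 1.17.1 and matplotlib 3.10.9 served the other steps.

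The members, gene lists and tests were chosen with earlier results of these data known. The genes named were all 10 members, the gene of each other list with the largest absolute log2 fold change, every other cathepsin tested, and *P2ry12*, *Tmem119* and *Aif1*. Largest changes not described elsewhere were those of *Slc11a1* (0.43), *Pf4* (-0.85), *Nrgn* (-0.33), *Mag* (-0.47), *Pecam1* (0.34) and *Cxcl10* (2.69). Medians of the remaining marker lists were -0.047 (neuron), -0.14 (astrocyte), -0.22 (oligodendrocyte), 0.12 (endothelial), -0.43 (choroid plexus) and 0.028 (monocyte and border macrophage). Alternatives were another pseudocount or filter, other scalings, other eBayes settings, a threshold of 0.05, array weights, omission of each mouse, and a GC-content correction added after the data were seen.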

Additional observations from a re-analysis of the deposited data

How the results depend on the processing

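With 1 mouse left out in turn, the members past the adjusted threshold numbered 0 to 1 (1, *Ctss*, without A5), those at an unadjusted p under 0.05 numbered 1 to 3 (1 without A2, where 6.61% of all genes passed, and 3 without A5, where 14.3% did), those whose groups did not overlap 3 to 5 (5 without A5 and without A6, where 32.7% and 31.5% of all genes did not overlap), and the median log2 fold change was 0.0073 to 0.18. *Ctss* and *Ctsh* were higher in depleted mice under all 16 alternatives. Small log2 fold changes turned sign. With array weights they were -0.10 for *Ctsc*, -0.12 for *Ctsz*, -0.0069 for *Lamp1*, -0.018 for *Lamp2*, -0.12 for *Ctsk* and -0.022 for *Ctso*, and with the GC-content correction 0.022 for *Ctsf*. With 1 mouse left out they ran from -0.29 to 0.34 for *Ctsc*, from -0.17 to 0.23 for *Ctsz*, from -0.014 to 0.087 for *Lamp1*, from -0.060 to 0.16 for *Lamp2*, from -0.12 to 0.047 for *Ctsf*, from -0.13 to 0.34 for *Ctsk*, from -0.050 to 0.15 for *Ctso* and from -0.039 to 0.30 for *Tmem119*. Without changing sign, *Ctsb* ran from 0.029 to 0.082 and *Ctsa* from -0.10 to -0.051, and without A4 *Mag* was at -0.28, *Pf4* at -0.54 and *Cxcl10* at 1.67. The cause was not tested. Over all genes, 4 passed at an adjusted p of 0.1 (array weights gave 20, omission of A5 gave 29), and 1515 had an unadjusted p under 0.05, 786 without A1 and 2056 without A5. No paired analysis was possible because the groups share no replicate numbers. Among the members, *Ctsc* had the fewest fragments per kilobase in A5, the library of 7.08 M fragments.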
